A study of Drosophila melanogaster with 3 samples.

Results

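The 10 genes described here encode proteins of phototransduction, the conversion of light into an electrical response in Drosophila melanogaster photoreceptors. They are ninaE, norpA, trp, trpl, inaC, inaD, Arr1, Arr2, rdgB and rdgC, taken by name from 13968 protein-coding genes. For each gene, every ChIP-seq summit inside it or within 5 kb of it was collected from 5 deposited peak lists, weak entries included. The data come from 1 group of 3 biological replicates of whole pupae of both sexes, of unknown age, from a transgenic strain, Pif1A-GFP. All carried GFP at the C terminus of Pif1A, and chromatin sonicated to 200 to 800 bp was recovered with an antibody against GFP. Pif1A, PFTAIRE-interacting factor 1A, is named for its interaction with the kinase Eip63E. Each replicate and the pooled replicates have a list of 30000 peaks, weak ones included. A shorter list of 7283, called optimal by its depositors, was chosen for reproducibility by IDR (irreproducible discovery rate). All 7283 are in the pooled list, where they are its 7283 highest peaks. No flies without the tag were analysed here, so signal that does not depend on Pif1A cannot be told apart from binding. Chromatin of all pupal tissues was mixed, so no peak can be assigned to photoreceptors. The lists hold no read counts and depth is unknown.

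In fly photoreceptors, light turns rhodopsin into metarhodopsin, which acts through a G protein on phospholipase C. The products of that enzyme lead to the opening of TRP channels in the microvillar membrane. Arrestins, a rhodopsin phosphatase, protein kinase C and the recycling of phosphoinositides end and reset the response. Many of these proteins are made at high levels in the eye from late pupal life onward.

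Of the 10 genes, 4 had an optimal summit inside or within 5 kb (norpA, inaD, rdgB and rdgC), beside 41.2% of all protein-coding genes. The count is near that background and is no result about the genes. A longer gene has a longer window, and among the 8124 genes no shorter than Arr2 and no longer than norpA the share was 45.9%. The 4 genes shared 9 optimal summits. Only 3 of these 9 lay within 500 bp of a transcription start site (TSS) of the gene itself. Another 4 lay within 500 bp of a TSS of a neighbouring gene, and 2 were in an intron of norpA. By promoter position, norpA, rdgB and rdgC (3 of 10) had one at most 500 bp from a TSS, beside 14.1% of all protein-coding genes. When a summit was counted only for the gene with the nearest TSS, norpA, rdgB and rdgC remained, 3 of 10, beside 19.2% of all. With 10 genes, no test was made of these shares.

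The sequences around the summits on X, 3L and 3R are shown because they are the sites on which the description rests. Each run is 101 bases of the plus strand of dm6 (RefSeq Release 6), centred on the summit. The strand is also that of transcription for norpA, rdgB and rdgC. Capitals mark matches on either strand to GAGAG (the GAGA factor) or TAATTG (a homeodomain core present in rhodopsin promoters).
norpA promoter summit (chrX:4322809-4322909): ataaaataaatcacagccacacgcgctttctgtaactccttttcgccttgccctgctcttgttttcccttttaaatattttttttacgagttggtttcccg
norpA first intron, lower summit (chrX:4324135-4324235): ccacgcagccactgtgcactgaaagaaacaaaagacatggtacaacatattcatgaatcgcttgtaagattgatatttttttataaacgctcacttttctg
norpA first intron, highest summit (chrX:4324935-4325035): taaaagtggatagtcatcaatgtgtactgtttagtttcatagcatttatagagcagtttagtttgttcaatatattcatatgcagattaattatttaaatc
rdgB promoter summit (chrX:13762602-13762702): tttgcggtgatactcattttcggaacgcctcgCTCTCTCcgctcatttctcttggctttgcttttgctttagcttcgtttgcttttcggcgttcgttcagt
CtsB promoter summit, in the rdgB window (chrX:13782110-13782210): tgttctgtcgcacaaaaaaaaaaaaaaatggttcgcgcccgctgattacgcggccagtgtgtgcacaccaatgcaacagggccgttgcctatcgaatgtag
inaE promoter summit, in the rdgB window (chrX:13783736-13783836): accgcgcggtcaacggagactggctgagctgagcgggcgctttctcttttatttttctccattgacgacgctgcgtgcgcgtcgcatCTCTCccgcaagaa
rdgC promoter summit (chr3L:20247657-20247757): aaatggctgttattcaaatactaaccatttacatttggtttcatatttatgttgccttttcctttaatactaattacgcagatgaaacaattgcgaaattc
ninaE upstream site of the replicates (chr3R:19892166-19892266): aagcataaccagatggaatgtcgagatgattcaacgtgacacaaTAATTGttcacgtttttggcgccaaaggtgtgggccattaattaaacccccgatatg
Of 6 motifs searched on both strands in the window of 50 bp to each side, only GAGAG was found at the 9 optimal summits. It was at the rdgB promoter summit and at the inaE promoter summit, 2 of 9, beside 13.3% of all 7283 optimal summits. The E-box CACGTG, the DRE element TATCGATA, TAATCC (bound by homeodomains of the Otd type), TAATTG and the GATA motif AGATAA were at none of the 9. Of all optimal summits, 0.673% held CACGTG, 0.522% TATCGATA, 3.16% TAATCC, 9.98% TAATTG and 7.68% AGATAA. The TAATTG in capitals is in the ninaE site, which was not in the optimal list. It is the only site outside that list shown here, and whether the match matters for ninaE was not tested. The highest norpA summit and the rdgC summit lay in AT-rich sequence, with 25.7% and 28.7% G and C. At the rdgB, CtsB and inaE promoter summits 47.5%, 49.5% and 58.4% of bases were G or C. The norpA promoter summit had 39.6%, the lower norpA intron summit 36.6%, and the inaD summits 36.6% and 32.7%. The mean over all optimal summits was 34.6%.

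**Figure D1:**
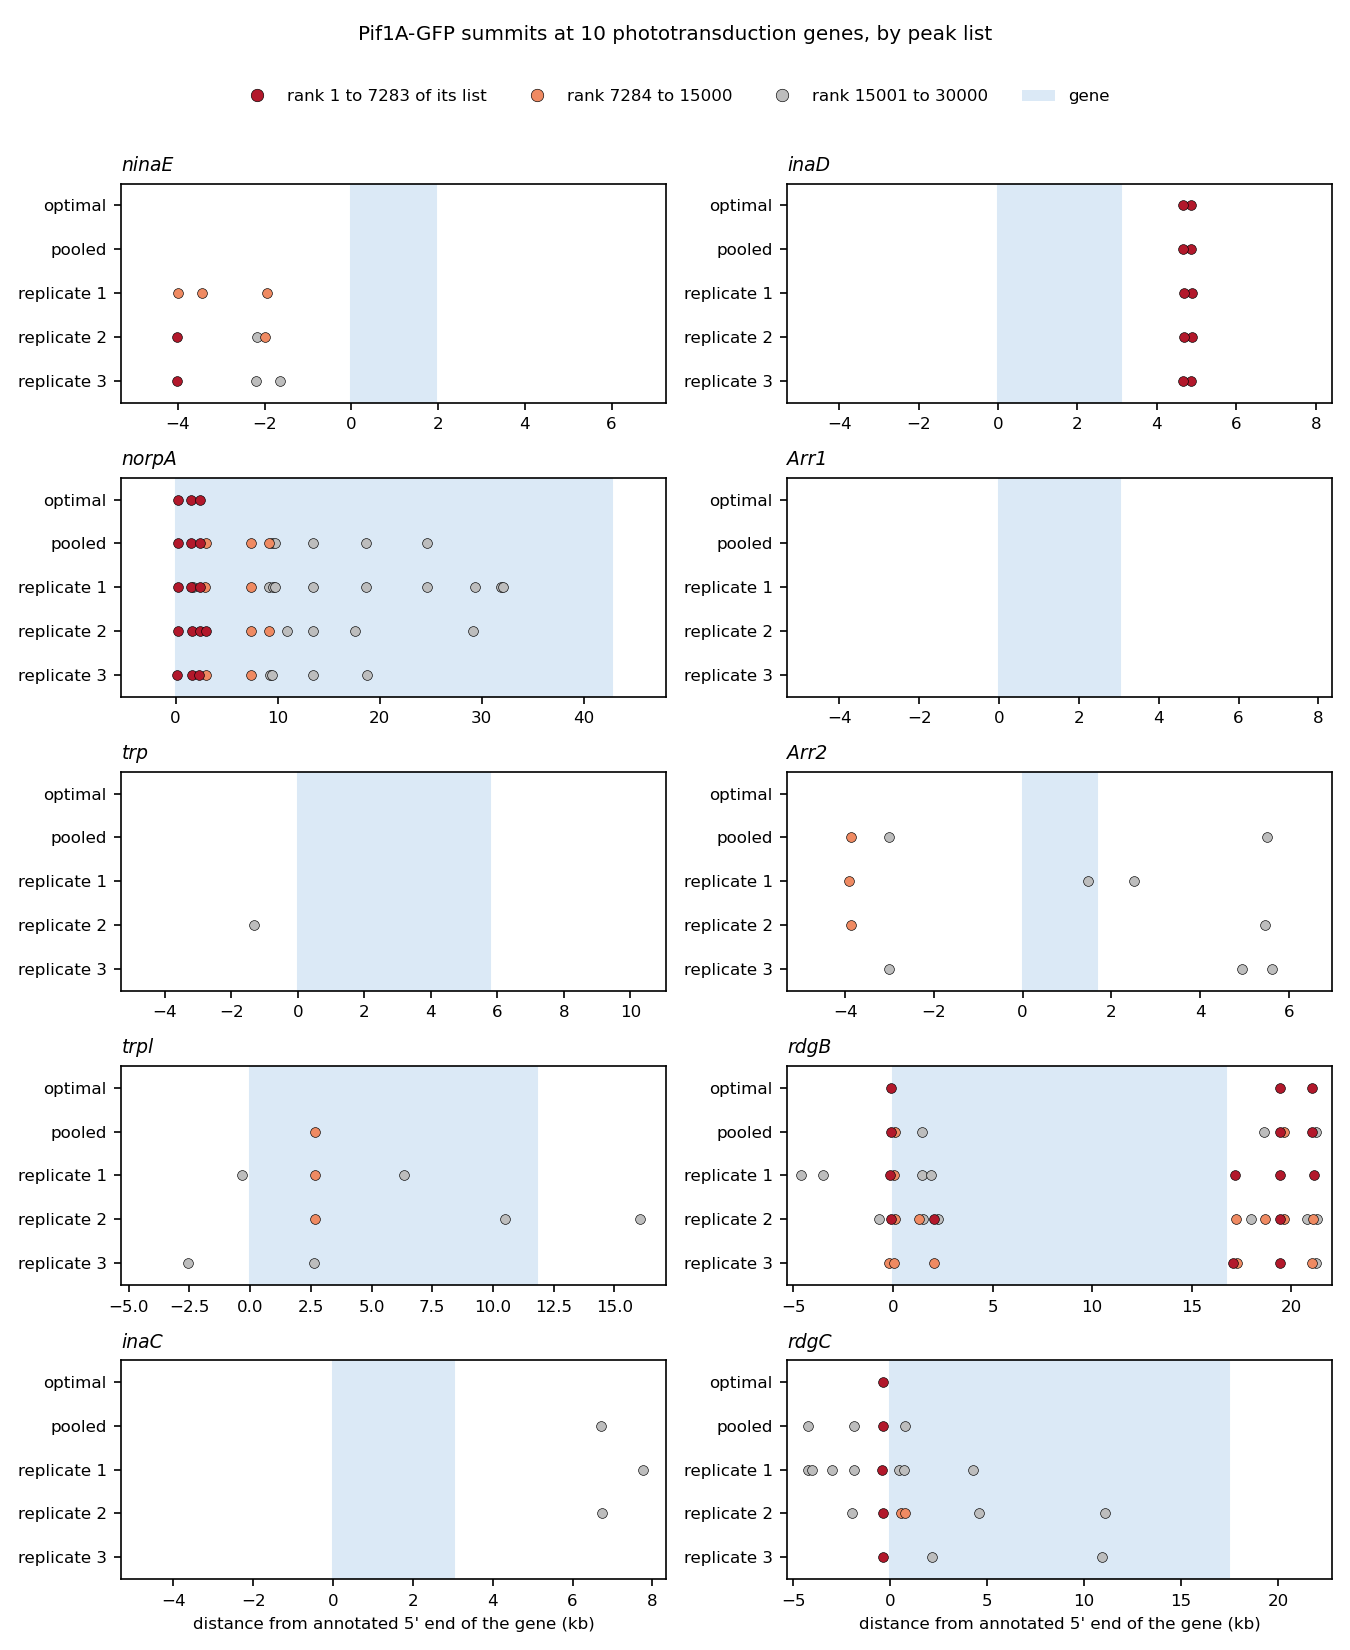
Summits at the 10 genes by list. The horizontal axis is the distance in kb from the annotated 5' end of the gene, positive in the direction of transcription, the rows are the 5 lists, shading marks the gene, and colour gives the rank within the list. The 9 optimal summits are at norpA, inaD, rdgB and rdgC, and the windows of trp and Arr1 are empty or nearly so.

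The receptor gene ninaE encodes the main rhodopsin, that of the outer photoreceptors. It is 1952 bp long, with FlyBase identifier FBgn0002940, and lies on the minus strand of 3R from 19886255 to 19888206. Neither the optimal nor the pooled list had a summit in its window. Replicates nevertheless shared a site 4010 bp upstream of the 5' end, with summits at 19892212, 19892231 and 19892216 in replicates 1, 2 and 3. Its ranks in the replicates were 8244, 2626 and 5132 of 30000, a mean of 5334 ± 2814 (SD, n = 3). It lies in an intron of CG4733, 1368 bp from a TSS of that gene. Replicates 2 and 3 placed it among their 7283 highest peaks and replicate 1 did not. No summit lay inside ninaE in any list.

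Downstream of rhodopsin and its G protein, norpA encodes phospholipase C, and its highest peak was the strongest at any of the 10 genes. The gene is 42783 bp long (FBgn0262738, plus strand of X, 4322626 to 4365408). Its highest summit was at 4324985, in a peak from 4324807 to 4325152 with a signal value of 772, rank 182 of 7283 in the optimal list, within the upper 2.50%. The signal value is the authors' peak score and is used only to rank peaks within a list. In replicates 1, 2 and 3 this site ranked 209, 150 and 200, a mean of 186 ± 31.8 (SD, n = 3). All 3 replicates placed it near the top of their lists, with signal values of 222, 303 and 259 and summits at 4325008, 4325008 and 4324974.

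That summit lay 2359 bp downstream of the first annotated start of norpA and 1376 bp from the nearest of its 3 TSSs. Of the 6 annotated transcripts, 4 span it in their intron 1, which is 9640, 9640, 2192 or 8994 bp long, and the other 2 start downstream of it. A lower optimal summit in the same intron, at 4324185, had a signal value of 138 and rank 4163. It ranked 5006, 4459 and 5466 in replicates 1, 2 and 3 (4977 ± 504, SD, n = 3). At the promoter, a summit at 4322859 lay 233 bp from the first TSS, in exon 1 of 3 transcripts, with a signal value of 179 and rank 2963. It ranked 2885, 2493 and 4295 in replicates 1, 2 and 3 (3224 ± 948, SD, n = 3). The rank ranges of the highest summit and of the promoter summit did not overlap between replicates, so within norpA the intron peak was stronger than the promoter peak in every replicate.

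Another 8 summits inside norpA were in the pooled list and not in the optimal one, at ranks 8337 to 25777. Of these, 4 had a summit within 100 bp in all 3 replicates. The strongest, at 4325627, 3001 bp from the 5' end, had a signal value of 77.7, beside 87.7 for the lowest optimal peak, and ranked 12952, 5289 and 8805 in replicates 1, 2 and 3. The next, at 4330030, ranked 11104, 10119 and 9947 (10390 ± 624, SD, n = 3). It lay 573 bp from a TSS of CG12693, a gene within norpA. No pooled summit was found in the norpA window beyond 4347270, 24644 bp from the 5' end.

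The light-activated cation channel genes trp and trpl had no optimal summit. The trp gene (FBgn0003861, 5769 bp, minus strand of 3R, 29914521 to 29920289) had no pooled summit and none in replicates 1 and 3. Replicate 2 had 1, at 29921593, 1304 bp upstream, with rank 16800. The nearest optimal summit was 19787 bp away, 247 bp from a TSS of CG31038. The trpl gene (FBgn0005614, 11822 bp, plus strand of 2R, 9753697 to 9765518) held 1 weak pooled summit at 9756361, with a signal value of 67.0 and rank 9710. That summit was found in all 3 replicates, at ranks 13726, 9381 and 15861 (12989 ± 3302, SD, n = 3). It lies 2664 bp from the trpl start, in the 3' UTR of CG1690, which overlaps trpl.

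The inaC gene encodes the eye protein kinase C and inaD the PDZ scaffold that holds the kinase, phospholipase C and TRP together. At inaC (FBgn0004784, 3041 bp, plus strand of 2R, 16898535 to 16901575) the pooled list had 1 summit, 3681 bp downstream, at rank 29513 of 30000. A match within 100 bp was found in replicate 2, at rank 25247, and in no other replicate. The nearest optimal summit was 59957 bp away.

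At inaD (FBgn0001263, 3107 bp, minus strand of 2R, 22855688 to 22858794) a pair of optimal summits lay 1549 and 1758 bp beyond the 3' end. They belong by position to the promoter region of neighbouring genes. The summit at 22853930, with a signal value of 343 and rank 1095, was 103 bp from the TSS of CG13531. The summit at 22854139, with a signal value of 199.7 and rank 2519, was 244 bp from the TSS of RpL23, the gene of a cytosolic ribosomal protein. In replicates 1, 2 and 3 the first ranked 1111, 1733 and 802 (1215 ± 474, SD, n = 3). The other ranked 2570, 3463 and 2423 (2819 ± 563, SD, n = 3). In each list the inaD window held these 2 summits and no other, so no peak lay inside inaD or near its own TSS, 4655 bp from the closer summit.

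Arrestins bind activated rhodopsin and stop its signal. Arr1 (FBgn0000120, 3039 bp, plus strand of 2L, 18078269 to 18081307) had no summit in its window in any of the 5 lists. The nearest optimal summit was 38564 bp away and the nearest pooled summit 33261 bp away. Arr2 (FBgn0000121, 1676 bp, minus strand of 3L, 8647261 to 8648936) had 3 weak pooled summits, at ranks 14978 to 22305 and 3017 to 3869 bp outside the gene. The highest of these, at 8652805, was matched in replicates 1 and 2, at ranks 9127 and 12853, and not in replicate 3. A replicate 1 summit at rank 27379 was the only entry inside Arr2 in the 5 lists.

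The phosphatidylinositol transfer protein encoded by rdgB returns lipid to the photoreceptor membrane. The gene (FBgn0003218, 16737 bp, plus strand of X, 13762752 to 13779488) had an optimal summit at 13762652, 100 bp upstream of the start that 10 of its 11 transcripts share. Its signal value was 110.0 and its rank 5555. By matches within 100 bp, replicates disagreed on this summit more than on those at norpA and rdgC. It ranked 3161 in replicate 1 and 6420 in replicate 2, and replicate 3 had no summit within 100 bp. The nearest entry of replicate 3, at 13762532, was 120 bp away and ranked 11857. A weaker pooled summit at 13762852, 100 bp inside the gene, ranked 10843 and was found in all 3 replicates, at 11382, 12229 and 7448. With replicate summits joined within 200 bp, the promoter was the same site in all 3 replicates, at best ranks 3161, 6420 and 7448.

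The other 2 optimal summits of the rdgB window lay downstream, at promoters of neighbours. The summit at 13782160, with a signal value of 173 and rank 3111, was 10 bp from the TSS of CtsB, which encodes cathepsin B, a lysosomal protease. A TSS of the gene amrt also lay within 500 bp. This summit was found in all 3 replicates, at ranks 3224, 4502 and 3025 (3584 ± 802, SD, n = 3). The summit at 13783786, with a signal value of 108 and rank 5727, was 72 bp from the TSS of inaE. That gene encodes a diacylglycerol lipase, itself a component of phototransduction. By position, rdgB and inaE are near neighbours on X. Replicates 2 and 3 had a summit within 100 bp, at ranks 8166 and 9248, and replicate 1 had one at 13783895, 109 bp away, at rank 4684. A further site just beyond the 3' end of rdgB was missing from the pooled list. Replicate 1 had a summit at 13779914, rank 3584, and replicate 2 at 13779963, rank 7629, both in the 3' UTR of CtsB. Replicate 3 had a pair, at 13779836 between genes, rank 5528, and at 13780038 in that 3' UTR, rank 9920. The pair are each within 100 bp of one of the other summits but not of both.

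The rhodopsin phosphatase gene rdgC had the highest-ranked peak at its own promoter among the 10 genes. The gene (FBgn0265959, 17475 bp, plus strand of 3L, 20248080 to 20265554) had an optimal summit at 20247707, 373 bp upstream of its first TSS, in a peak from 20247547 to 20247855. Its signal value was 467 and its rank 616, within the upper 8.46% of the optimal list. In replicates 1, 2 and 3 it ranked 815, 662 and 514 (664 ± 151, SD, n = 3), with signal values of 124, 160.4 and 179. No TSS of another gene lay within 500 bp of it. The gene body held only weak entries, such as a pooled summit at 20248860 with rank 24921.

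**Figure D2:**
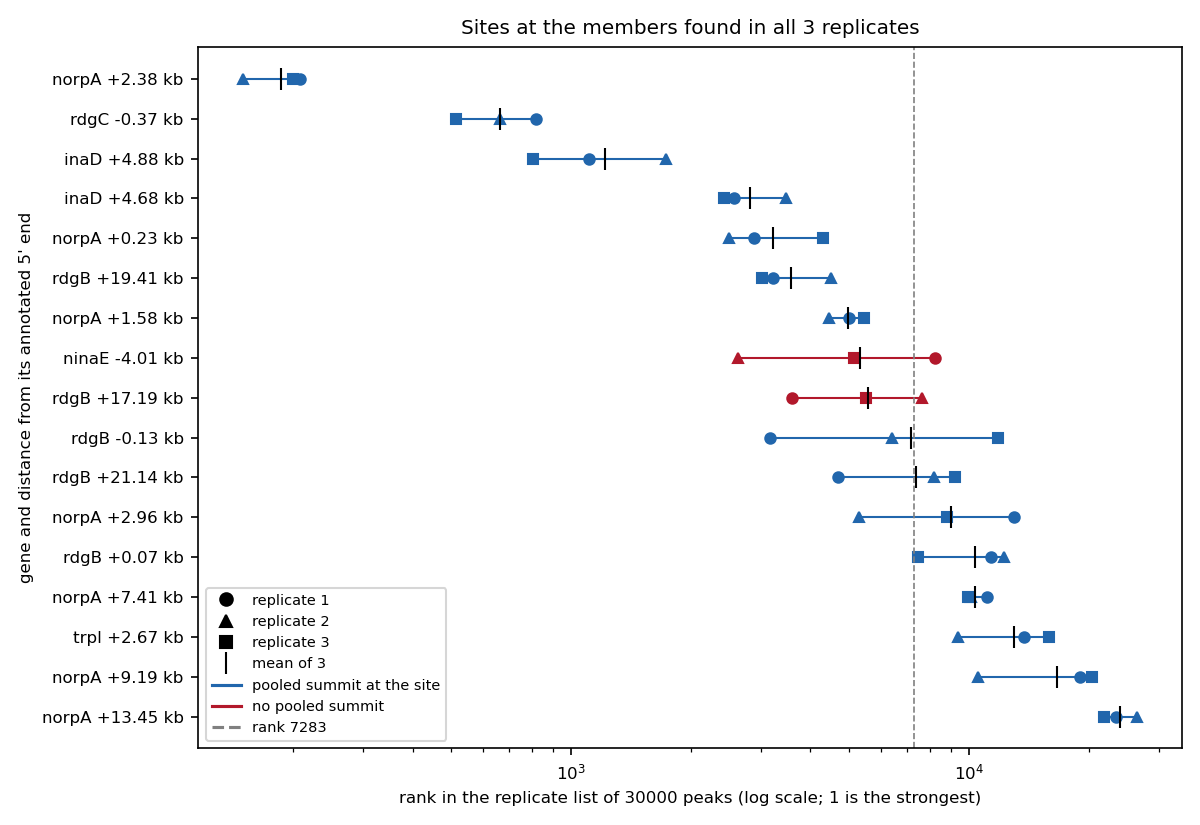
Rank in each replicate list (log scale, 1 is the strongest) of the 17 sites at the 10 genes that were found in all 3 replicates, with summits chained within 100 bp and the best rank of each replicate shown; symbols are replicates, lines span them, and ticks are means. The norpA intron site (150 to 209) and the rdgC promoter (514 to 815) stand highest, and the 2 sites in red, at ninaE and beyond the 3' end of rdgB, had no pooled summit.

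Of the 9 optimal summits, 7 had a summit within 100 bp among the 7283 highest peaks of all 3 replicates. The exceptions were the rdgB promoter and the inaE promoter. The optimal list was chosen for reproducibility over these replicates, so such matches are partly built in. The same share over all optimal summits is not given here, so 7 of 9 cannot be called high or low. Counted by replicate, 4 of the 10 genes had a summit in their window among the 7283 highest of replicate 1, beside 45.5% of all protein-coding genes. In replicate 2 it was 5, beside 45.7%, and in replicate 3 also 5, beside 44.0%, the added gene being ninaE. With weak entries included, 7 of 10 genes had a pooled summit, beside 64.3% of all, and 7 had a summit in each whole replicate list, beside 61.3%. These shares lie near the background too. The 21 weak pooled summits divided into 6 matched in all 3 replicates, 6 in 2 and 9 in 1. The division of all weak pooled peaks is not given here for comparison.

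Chained where neighbouring summits were within 100 bp, so that a site can be wider than that, the replicate summits formed 71 sites at the 10 genes, 17 of them in all 3 replicates, 9 in 2 and 45 in 1. Sites were chained at the 10 genes only, so these counts have no background share beside them. Chaining put the rdgB promoter among the 17, with the replicate 3 summit at rank 11857. Of the 17, those at ninaE and beyond rdgB had no pooled summit. Across the genome, 357 of 10390 replicate 1 peaks matched in both other replicates (3.44%) had no pooled summit within 100 bp. The distance was longer at ninaE than at nearly all of them. There the nearest pooled summit was 13855 bp away, and 16 of the 10390 peaks (0.154%) were at least as far from one. How the pooled list came to lack these sites was not tested.

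**Figure D3:**
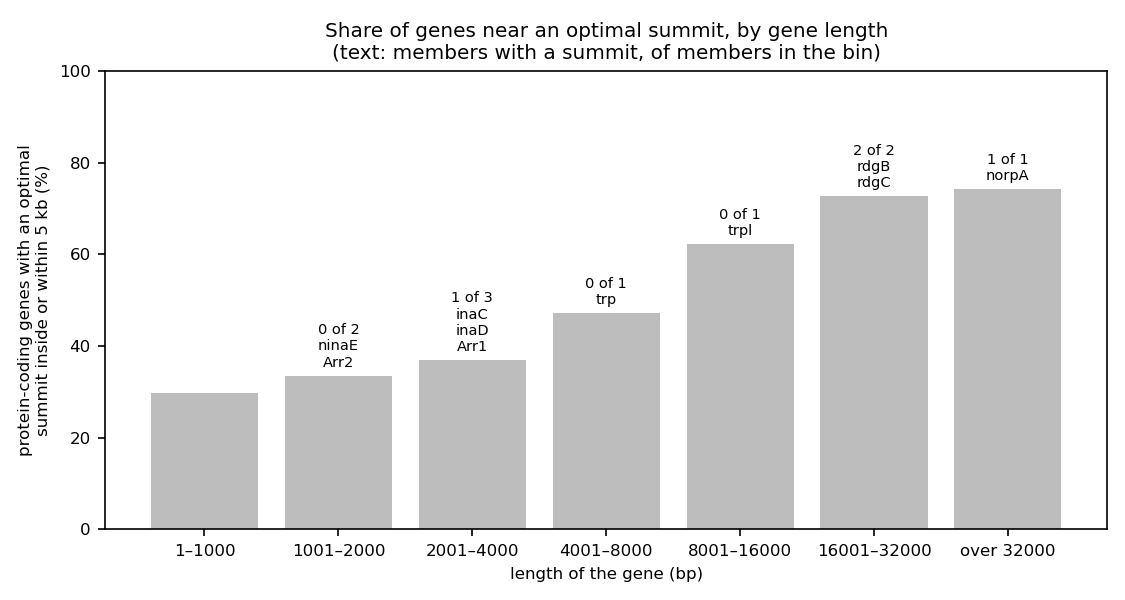
Share of protein-coding genes with an optimal summit inside or within 5 kb (percent, bars) by gene length in bp, with the count of the 10 genes above each bar. The share was 29.8% for genes up to 1000 bp and 74.3% for those over 32000 bp, and the 3 longest of the 10 genes all had a summit.

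Gene length went with the presence of a summit among all genes. In the bin of 16001 to 32000 bp, which holds rdgB and rdgC, the window of 72.7% of genes contained an optimal summit. For genes of 1001 to 2000 bp, the bin of ninaE and Arr2, it was 33.5%. The 3 longest genes of the set, norpA, rdgC and rdgB, had a summit, and of the 7 shorter ones only inaD did. The part of length in the differences between these genes was not tested. Per length, the windows of the 10 genes held 43.4 optimal summits per Mb (9 in 207401 bp), against 58.6 per Mb over the merged windows of all protein-coding genes. In the pooled list the density was 145 per Mb at the 10 genes, against 231 per Mb over all. The best rank in the window had a median of 855.5 over the 4 genes with an optimal summit, against 1932 over the 5761 protein-coding genes with one. For inaD (1095) and rdgB (3111) that best rank is of a summit at the promoter of a neighbour. The 4 genes also include the 3 longest of the set, whose windows are longer, so these medians do not compare like with like.

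Around the limit of 5 kb, the farthest optimal summit inside it was that at inaE, 4298 bp beyond rdgB. Just outside it, a summit at 13784649 in an intron of inaE lay 5161 bp from rdgB, at rank 2640, and its peak began within the limit. Another, 5631 bp upstream of rdgB, had rank 7150 and was 58 bp from a TSS of Rtc1. Among genes with no optimal summit in the window, the nearest such summits were 7954 bp from Arr2 (rank 945, between genes) and 8422 bp from ninaE (rank 4539, 96 bp from the TSS of Arc42).

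Of 33 other genes of phototransduction, its chromophore and output, or the factors that specify photoreceptors, 11 had an optimal summit inside or within 5 kb, beside the 41.2% of all protein-coding genes. Within 500 bp of a TSS the count was 5 of 33, beside 14.1%. The 5 were oc, a homeodomain factor gene (rank 2663, 184 bp from a TSS), Cam, the calmodulin gene (rank 4445, 43 bp), inaE, Hdc, which makes the transmitter histamine (rank 6218, 9 bp), and Calx, a sodium and calcium exchanger gene (rank 6933, 110 bp). Calx falls outside the rule for naming genes and was chosen after its values were seen. The oc and Calx summits had a match within 100 bp in replicate 3 only, at ranks 3344 and 5284, and Hdc had none in replicate 1. Cam was at ranks 4694, 5317 and 4852 in replicates 1, 2 and 3.

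The other rhodopsin genes were without optimal summits, Rh5 excepted, beside 41.2% of all protein-coding genes with one. At Rh5 there were 6, the highest at rank 721, 1421 bp outside the gene and nearer to the TSS of lncRNA:CR44588. That summit ranked 383, 1195 and 728 in replicates 1, 2 and 3. None of the G protein genes Galphaq, Gbeta76C and Ggamma30A had an optimal summit. The rhodopsin and G protein genes are too few for a result about either group. The diacylglycerol kinase gene rdgA held an intragenic summit at rank 1803, 154 bp from the TSS of CG10962. The myosin III gene ninaC (rank 3656) and the transcription factor gene gl (4622, in an intron) had theirs over 500 bp from their own TSSs. So did pinta (1903, 488 bp from a TSS of mats) and inaF-B (4931, in CG15221). The highest summit of the inaE window, at rank 1965, lay in Clic, 4268 bp outside inaE.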

How the data were processed

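ChIP-seq of Pif1A-GFP was measured in 3 biological replicates of whole pupae. The authors deposited narrowPeak lists on dm6; replicate and pooled lists were made against a common control as input to IDR, per the descriptions deposited with the files. Aligner, peak caller and IDR threshold: not given in the sources used here. Each peak's deposited signal value depends on its list and was used for ranks within a list. The deposited −log10 q-value reaches its highest value in 3657 pooled peaks and was used only as an alternative ranking. Lists on dm3 were not used here.

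Summits were placed with Ensembl release 115, whose coordinates for the 10 genes equal those of RefSeq Release 6, without transposable elements and pseudogenes (Python 3.11.15, pandas 2.3.3). A replicate match is the best-ranked summit within 100 bp. The assignment of summits was checked on simulated data. The other pathway genes were a list of 33, with Trpgamma under its current symbol. By rule, genes named were the 10 members, up to 10 other pathway genes with the highest summits, and genes holding or nearest to the members' optimal summits. Outside this rule, genes at weak, replicate or more distant summits, genes at summits of other pathway genes, and pathway genes without an optimal summit are also named. The genes and lists were chosen with earlier results of these data known, and no tests were made. Ranks are given for each replicate, and SD is over replicates, which share a control.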

Additional observations from a re-analysis of the deposited data

How the results depend on the processing

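Of 50 comparisons of a count or share with its value under an alternative, 43 stayed within 1.5 times, that limit included. Genes with an optimal summit, 4 within 5 kb and 6 within 10 kb, were thus counted as unmoved. Sites in all 3 replicates without a pooled summit, given below, were not among the 50. The count of genes with an optimal summit within 5 kb was 4, and 1 with the gene body alone (norpA). The count of optimal summits was 9, and it was 3 with the gene body alone, 17 within 10 kb, 16 with the 15000 highest pooled peaks and 5 when the nearest TSS had to be that of the gene. The genes with an optimal promoter summit, at most 500 bp from a TSS, were 3, and 1 at most 200 bp (rdgB). The other pathway genes were 11, and 20 within 10 kb. Leaving out a replicate did not remake the optimal list, which still rests on all 3. Its peaks were kept only if matched within 100 bp among the 7283 highest peaks of both other replicates. Such a filter can only remove peaks. It kept the same 4 genes each time, with 7 to 8 summits and 2 to 3 promoters. It also kept 8 to 9 other pathway genes and 33.5% to 34.1% of all protein-coding genes. Whether the 4 genes would remain in a list made without a replicate was not tested. The rdgB promoter was lost without replicate 1 or replicate 2, since replicate 3 did not match it. Ranking by −log10 q-value put the highest peaks of norpA, inaD, rdgB and rdgC at a shared rank of 1, because the values tie. Joining replicate summits within 200 bp gave 4 sites in all 3 replicates without a pooled summit, against 2. The ranking by p-value that had been planned could not be run, since that column holds no values. Chosen after seeing the data were the joining distance, the q-value ranking, the counts in single replicates, the nearest TSS for promoters, and leaving out a replicate for the other pathway genes and for the share of all protein-coding genes. No paired analysis was possible because the series has 1 group. Depth is unknown, so a missing summit may be one that was not detectable.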

Other observations

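The ninaE locus lies in a gap of the pooled list. Its flanking pooled summits are at 19877833 and 19906071 on 3R, 28238 bp apart, against a median of 1413 bp between neighbouring pooled summits. Of 29994 gaps, 692 (2.31%) were at least as long. Each gap counts once whatever its length, so this is not the share of the genome in such gaps. A long gap was not particular to ninaE, since the pooled summit nearest to Arr1 was 33261 bp away. Within the gap at ninaE, replicates 1, 2 and 3 listed 8, 5 and 7 summits. A second group of replicate summits in it, 2083 bp upstream of ninaE and 400 bp from a TSS of CG4733, formed a site in all 3 replicates when summits were joined within 200 bp, at ranks 13759, 9476 and 16009. Inside rdgB, 2033 bp from its 5' end, a site of the same kind ranked 15862, 6892 and 7810. The origin of these differences between the pooled and the replicate lists was not tested.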
